A study of Mus musculus with 28 samples.

Results

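The comparison described here is that of nicotinamide mononucleotide (NMN) against water in the liver of mice gavaged 2 times a day, at 2680 mg/kg/d of NMN. It comprised 6 of the 28 libraries of the series, 3 from mice given NMN and 3 from mice given water on the same schedule, and they were chosen by their titles alone. All 6 mice were males, 8 weeks old, of the strain given as C57BL/6 in the labels and as C57BL6J in the article. The NMN mice received NMN in sterile water and the controls sterile water only, both by gavage for 7 days, so that handling and the number of gavages were shared by the groups. For 1 comparison of schedules, the 8 liver libraries of mice gavaged once a day (4 with NMN at 1340 mg/kg/d and 4 with water) were used as well. The study used this schedule to look for toxicity of NMN above a dose given once a day.

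NMN is the direct precursor of NAD+. It is made from nicotinamide by NAMPT and converted to NAD+ by the NMNAT enzymes, and NAD+ is split again to nicotinamide by sirtuins, PARP enzymes and CD38. The liver is the main organ that makes NAD+ from tryptophan and that removes surplus nicotinamide by methylation. Its hepatocytes also make most plasma proteins, fatty acids and bile acids, and they carry most of the enzymes that break down drugs. In rodents many of these genes differ between the sexes under the control of pulsed growth hormone.

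The 6 libraries held 17573184 to 20635269 reads assigned to genes. The expression level is given as CPM, the reads of a gene relative to the library total, after scaling by the TMM method, which sets aside differences in library composition. Summed levels of marker lists and the levels of kidney markers are the exception, and are given as plain CPM without this scaling. Hepatocyte markers dominated every library. Alb, which encodes albumin, was the most abundant of the 12 markers, and their summed level was 163216, 159692 and 154315 plain CPM in the water libraries and 130542, 138151 and 141510.0 plain CPM in the NMN libraries. Genes of endothelial, Kupffer, stellate and bile duct cells were also detected, as in any piece of whole liver. In bulk RNA, fewer cells of a type cannot be told apart from less RNA per cell.

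NMN replicate 1 stood apart from the other libraries. On the first principal component, which held 53.75% of the variance, it lay at 36.8, the other NMN libraries at 9.67 and 12.7, and the water libraries between -21.4 and -18.7. It had the fewest genes with a read (15677, against 15922 to 17474 in the others) and the largest share of mitochondrial reads (9.24%, against 5.74% to 7.37%). It also held low levels of kidney transcripts, whose origin was not tested. Kap, an abundant transcript of the male kidney, was at 22.8 plain CPM there, at 5.77 plain CPM in water replicate 2 and at no more than 1.08 plain CPM in the other 4 libraries. The summed level of the 10 kidney markers was 0.582, 8.63 and 1.82 plain CPM in the water libraries and 36.8, 1.35 and 1.37 plain CPM in the NMN libraries, with Nphs1 at 0 in all 6 libraries. The part of this library in the results was not tested beyond leaving it out, and most counts of calls in gene lists are followed by those with each library left out, in the order of water replicates 1, 2 and 3 and NMN replicates 1, 2 and 3, so that the value after those of the 3 water libraries is that without NMN replicate 1.

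Of the 12477 genes expressed highly enough to test, 883 were called by edgeR's quasi-likelihood test at an adjusted p below 0.05, which is 7.08% of them. Among these, 380 rose with NMN (3.05%) and 503 fell (4.03%). With a stricter threshold, an adjusted p under 0.01 and a change of more than 2-fold, 135 genes passed (1.08%), of which 44 rose (0.353%) and 91 fell (0.729%). The median change of all tested genes was 0.00 on the log2 scale, their quartiles were -0.31 and 0.33, and 50.4% were above 0. The genes called higher had a median log2 fold change of 0.97 and those called lower of -0.97, and 174 and 246 of them changed more than 2-fold. The levels of the groups did not overlap for 3721 genes (29.8%), and for 882 of the 883 called genes. An exact permutation test of 3 mice against 3 cannot give a two-sided p below 0.1. With 1 library left out, 314, 211, 492, 717, 1308 and 237 genes passed. The largest loss was without water replicate 2, and more genes passed without NMN replicate 2 than with all 6 libraries. Without NMN replicate 1, 717 genes passed, 571 of them among the 883. Most called genes (822) were protein-coding. Another 48 were long noncoding RNAs, of 596 tested, and 11 were pseudogenes. The shares of 3.05% and 4.03% are the background for the gene lists below, and they are not matched for expression level. The plot of change against level shows that called genes were found at every level of expression. They leaned to the more abundant genes, however. The median of the mean level was 27.7 CPM for genes called higher, 26.2 CPM for genes called lower and 12.9 CPM for all tested genes.

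**Figure D1:**
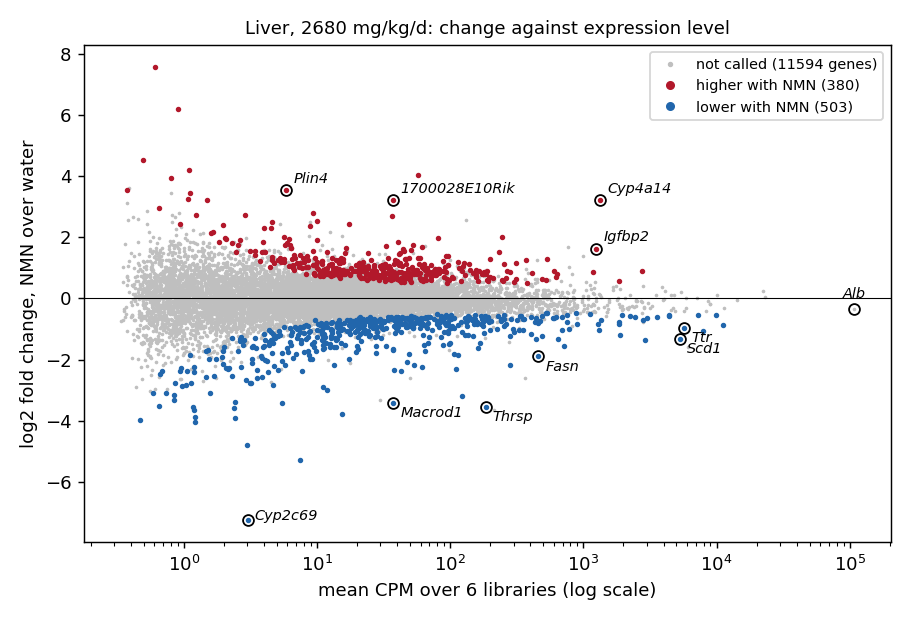
Each point is 1 of 12477 tested genes, with its mean level over the 6 libraries in CPM on a log axis and its log2 fold change of NMN over water. The 380 genes called higher are red, the 503 called lower are blue, and named genes are circled. Alb, the most abundant of the genes circled, is grey because it did not pass (log2 fold change -0.36, adjusted p = 0.0750).

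The 12 genes with the smallest p in each direction are plotted library by library. They were taken only from genes whose groups do not overlap and whose mean was at least 1 CPM, so the separation of the groups is part of how they were chosen. The noncoding RNA 1700028E10Rik stood first among those that rose, at 5.77, 8.12 and 8.06 CPM with water and 75.1, 64.9 and 63.1 CPM with NMN. Every NMN library was far above every water library. Its exons overlap those of D730045B01Rik and Gm42906, and reads that lay wholly in such an overlap were counted for no gene. Gsta2, a glutathione transferase, was at 29.2, 28.8 and 39.9 CPM with water and 119.6, 116 and 151 CPM with NMN, and Cyp39a1, which hydroxylates a side-chain oxidised cholesterol on the way to bile acids, was at 15.7, 16.8 and 13.4 CPM with water and 57.9, 46.6 and 47.6 CPM with NMN. Igfbp2, a secreted protein that binds insulin-like growth factors, was the one with the highest CPM of the 12, at 669, 653 and 502 CPM with water and 1548, 1941 and 2147 CPM with NMN. Nr1i3 encodes the nuclear receptor CAR, a regulator of drug metabolism, and its log2 fold change was 1.38 (SE 0.16, adjusted p = 0.00141). It overlaps Tomm40l. Plin4, a protein that coats lipid droplets, was at 0.927, 1.29 and 0.533 CPM with water and 5.72, 12.7 and 14.2 CPM with NMN, and it overlaps Hdgfl2. Lgals4 encodes a galectin best known from the gut, and its log2 fold change was 2.79 (SE 0.31, adjusted p = 0.000967). The others were Mgea5, the enzyme that removes O-GlcNAc from proteins (also known as Oga), Fubp1, a single-stranded DNA binding protein, Brpf3, a scaffold of histone acetyltransferases, Glt1d1, a predicted glycosyltransferase, and the unnamed gene Gm42047. Their log2 fold changes lay between 1.29 (Fubp1) and 2.54 (Gm42047).

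**Figure D2:**
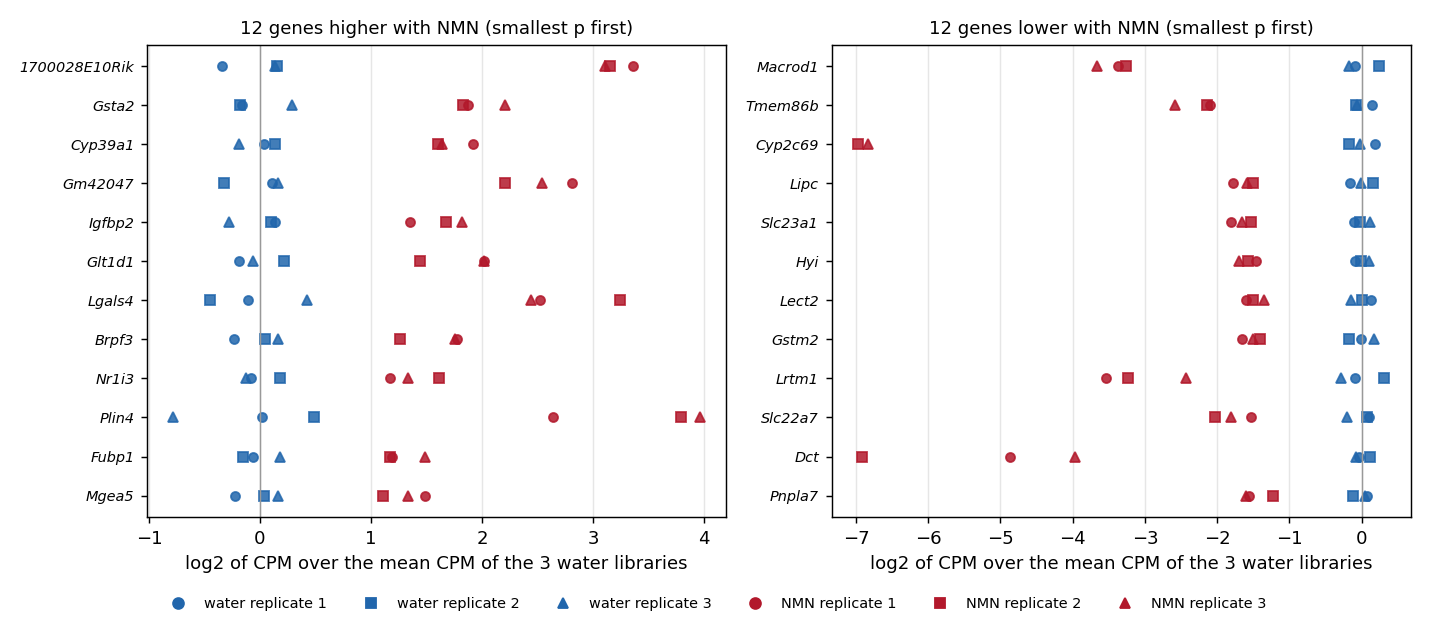
Each symbol is 1 library, placed at the log2 ratio of its CPM to the mean of the 3 water libraries, for the 12 genes with the smallest p in each direction. Blue symbols are water and red symbols NMN, circles, squares and triangles stand for replicates 1, 2 and 3. The NMN replicate 1 of Cyp2c69 is missing because it had no read.

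Among the genes that fell, Macrod1 stood first, and is described next. Tmem86b, which encodes lysoplasmalogenase, was at 113, 96.6 and 97.4 CPM with water and 23.9, 23.2 and 17.0 CPM with NMN, and it overlaps Gm44877. Lipc, the hepatic lipase that acts on circulating lipoproteins, was at 219, 272 and 244 CPM with water and 71.5, 86.2 and 81.8 CPM with NMN. Hyi, a putative hydroxypyruvate isomerase that overlaps another gene, was at 46.5, 49.5 and 53.2 CPM with water and 18.1, 16.7 and 15.4 CPM with NMN. Lect2, a hepatokine found mainly around the central vein, had a log2 fold change of -1.48 (SE 0.15, adjusted p = 0.00059). Pnpla7, a lysophospholipase, had one of -1.46, and Slc22a7, the organic anion transporter OAT2, one of -1.78. Slc23a1, a transporter of vitamin C, had one of -1.66. Cyp2c69 was almost lost. It had between 100 and 132 reads in each water library and 0, 1 and 1 in the NMN libraries, a ratio of 163 between the groups with a 95% exact interval of 44.7 to 1351 that covers counting error only. Dct, the melanin enzyme dopachrome tautomerase, had 323 reads in the water libraries together and 12 in the NMN libraries. Lrtm1, a transmembrane protein of unknown role in liver, was at 19.9, 26.3 and 17.5 CPM with water and 1.82, 2.25 and 3.94 CPM with NMN.

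Macrod1 encodes a mitochondrial enzyme that removes from proteins ADP-ribose, the group that PARP enzymes build from NAD+. Its level was 64.0, 80.3 and 60.3 CPM with water and 6.61, 7.08 and 5.36 CPM with NMN, and the log2 fold change was -3.42 (SE 0.19, adjusted p = 1.31e-05). No NMN library reached even the lowest water library. When any 1 library was removed, its change stayed between -3.51 and -3.29 and the adjusted p was 0.00022 at most. None of the other 11 tested genes of ADP-ribose removal passed (0% higher and 8.33% lower, with no rises and 1, 1, 1, 1, 1 and 1 falls when each library was left out). Adprh, which frees arginine from ADP-ribose, changed by -0.91 on the log2 scale (adjusted p = 0.0892) and Nudt16 by -0.37 (adjusted p = 0.485). The median of the 12 genes was 0.03. Macrod1 lies on chromosome 19, and the 250 bases before its first annotated start are shown because Macrod1 had the smallest p of the genes that fell. The sequence is that of RefSeq on GRCm38.p6, plus strand, chr19:7056518-7056767, and capitals mark CACGTG, the E-box that clock and carbohydrate-response factors can bind, at 92 bases before the start.
Macrod1: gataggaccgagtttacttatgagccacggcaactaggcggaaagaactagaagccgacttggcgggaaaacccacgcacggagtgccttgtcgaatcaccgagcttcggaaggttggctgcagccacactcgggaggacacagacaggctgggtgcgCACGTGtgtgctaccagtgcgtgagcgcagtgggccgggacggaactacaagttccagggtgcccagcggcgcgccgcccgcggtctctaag
CACGTG was found on either strand in 6.02% of all 32851 promoter windows of this length. Counted by gene, with a match in any of its windows, the share was 10% of matched tested genes. It was 11.7% of the 300 matched genes that rose and 8.4% of the 393 that fell.

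In NAD+ salvage 2 of 22 tested genes rose and 1 fell (9.09% higher and 4.55% lower, with 1, 1, 2, 1, 2 and 0 rises and 1, 1, 1, 1, 1 and 1 falls when each library was left out), and the median log2 fold change was 0.00. Nampt, the enzyme that makes NMN from nicotinamide, was at 31.1, 34.4 and 44.2 CPM with water and 64.0, 52.7 and 65.5 CPM with NMN. The groups did not overlap, and the log2 fold change was 0.73 (SE 0.17, adjusted p = 0.0303). It passed in 2 of the 6 fits that left out a library. Slc25a51, the carrier that brings NAD+ into mitochondria, was at 19.7, 29.8 and 28.8 CPM with water and 61.1, 43.2 and 68.9 CPM with NMN, with a log2 fold change of 1.15 (SE 0.21, adjusted p = 0.0131). Nadsyn1, which turns nicotinic acid adenine dinucleotide into NAD+, was at 22.4, 28.3 and 22.4 CPM with water and 9.51, 12.6 and 10.6 CPM with NMN, a fall of 1.16 on the log2 scale (SE 0.19, adjusted p = 0.00725). The enzymes that use NMN and nicotinamide riboside did not pass. Nmnat1 changed by -0.08 on the log2 scale (adjusted p = 0.833) and Nmrk1 by 0.33 (adjusted p = 0.349). Slc12a8, proposed as an NMN transporter, was detected at no more than 1.43 CPM in any library and did not pass (adjusted p = 0.140). Nnmt, which methylates nicotinamide, was at 107, 112 and 53.3 CPM with water and at 112 and 54.5 CPM in NMN replicates 1 and 2, with replicate 3 lowest of all, and did not pass (adjusted p = 0.659).

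On the route from tryptophan to NAD+, 2 of 15 tested genes rose and 2 fell (13.3% higher and 13.3% lower, with 1, 1, 2, 2, 2 and 1 rises and 1, 1, 2, 2, 2 and 1 falls when each library was left out). Acmsd, which diverts the intermediate away from NAD+, was at 33.9, 30.5 and 24.5 CPM with water and 133, 80.2 and 69.0 CPM with NMN, a log2 fold change of 1.67 (SE 0.24, adjusted p = 0.00513). It overlaps 2900009J06Rik, and NMN replicate 1 was the highest library. Qprt, which makes the mononucleotide of nicotinic acid from quinolinic acid, was at 200.2, 218 and 186 CPM with water and 114, 139 and 101 CPM with NMN (log2 fold change -0.78, adjusted p = 0.0167). Kyat3, a kynurenine aminotransferase, rose by 0.70 on the log2 scale (adjusted p = 0.0178), and Nadsyn1 belongs to this route too. Of 23 tested sirtuins, PARP enzymes and other users of NAD+ 1 rose and 1 fell (4.35% higher and 4.35% lower, with 1, 0, 1, 1, 2 and 1 rises and 0, 0, 0, 0, 1 and 0 falls when each library was left out). Parp6 rose by 1.16 (adjusted p = 0.0111) and Parp3, which overlaps Rrp9, fell by 0.73 (adjusted p = 0.0416). Sirt1 changed by 0.61 (adjusted p = 0.156) and Parp1 by -0.47 (adjusted p = 0.0801). In purine breakdown 1 gene rose and 3 fell of 23 tested (4.35% higher and 13.04% lower, with 0, 0, 1, 1, 1 and 0 rises and 2, 0, 0, 3, 2 and 0 falls when each library was left out), with a median of -0.23. Entpd5, a nucleoside diphosphatase, rose by 0.90, and Entpd8, the ectonucleotidase of bile canaliculi, Adora1, an adenosine receptor, and Adk, adenosine kinase, fell by 0.82, 1.58 and 0.47 on the log2 scale.

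Fatty acid synthesis had the largest share of members that fell of all lists with at least 9 tested genes. Of 27 tested genes 8 fell and none rose, which is 29.6% against 4.03% of all tested genes, and the median log2 fold change was -0.53 against 0.00. With each library left out, 6, 6, 7, 10, 9 and 5 members were called lower. They included enzymes at successive steps from citrate to oleate. Acly, which cleaves citrate to acetyl-CoA, was at 292, 191 and 323 CPM with water and 129, 128 and 138 CPM with NMN. Acaca and Acacb, the acetyl-CoA carboxylases, fell by 0.60 and 2.17. Fasn, the fatty acid synthase, was at 728, 752 and 690.0 CPM with water and 192, 270.0 and 120.1 CPM with NMN. Elovl6, which lengthens palmitate and overlaps Gm35986, fell by 1.03, and Scd1, which puts the double bond into stearate, was at 8073, 5524 and 9091 CPM with water and 3402, 2514 and 3123 CPM with NMN. The Scd genes are similar to each other, and reads without a unique alignment were counted for none of them. Thrsp and Mid1ip1 are partner proteins that switch on lipid synthesis and bind acetyl-CoA carboxylase, respectively. Thrsp was at 379, 344 and 297 CPM with water and 18.7, 46.7 and 21.2 CPM with NMN, the largest change in the list with a log2 fold change of -3.56 (SE 0.35, adjusted p = 0.00205), and Mid1ip1, which overlaps Gm14493, fell by 0.89. In the plot of these genes the NMN libraries lie below the water libraries in every row. NMN replicate 2 was the NMN library nearest to water for 5 of the 8.

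**Figure D3:**
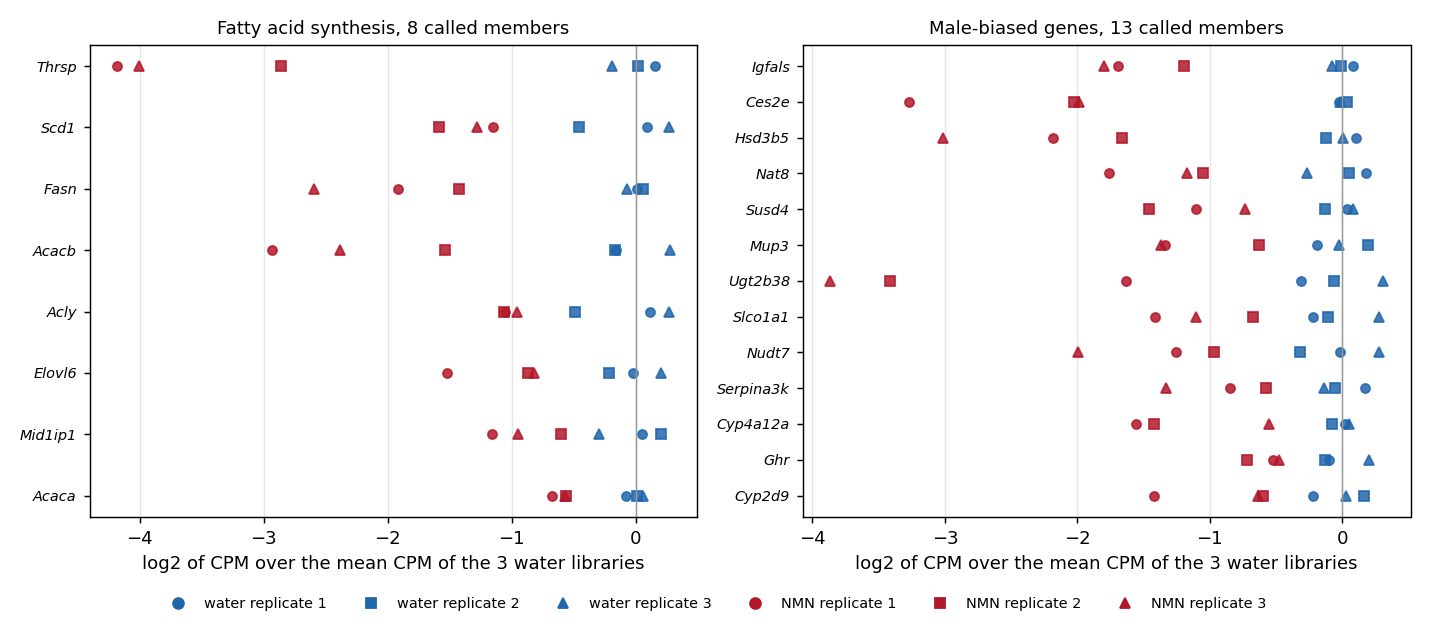
Each symbol is 1 library, at the log2 ratio of its CPM to the mean of the 3 water libraries, for the 8 called genes of fatty acid synthesis on the left and the 13 called male-biased genes on the right. Blue symbols are water, red symbols NMN, and circles, squares and triangles are replicates 1, 2 and 3. Thrsp and Ugt2b38 reach the lowest ratios, and no row has groups that overlap.

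The promoters of Fasn and Thrsp are shown because both fell together and each holds the CCAAT box, the site of NF-Y, which is known to act with SREBP at lipogenic promoters. Both sequences are the 250 bases before the start in RefSeq on GRCm38.p6, minus strand, at chr11:120824548-120824797 for Fasn and chr7:97417551-97417800 for Thrsp. Capitals mark CCAAT, written ATTGG where it lies on the opposite strand, and in Fasn matches on both strands overlap.
Fasn: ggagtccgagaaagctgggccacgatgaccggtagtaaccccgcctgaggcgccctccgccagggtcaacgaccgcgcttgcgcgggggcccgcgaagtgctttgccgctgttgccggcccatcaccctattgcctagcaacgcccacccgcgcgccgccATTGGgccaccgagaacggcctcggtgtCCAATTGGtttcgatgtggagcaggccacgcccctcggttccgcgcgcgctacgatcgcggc
Thrsp: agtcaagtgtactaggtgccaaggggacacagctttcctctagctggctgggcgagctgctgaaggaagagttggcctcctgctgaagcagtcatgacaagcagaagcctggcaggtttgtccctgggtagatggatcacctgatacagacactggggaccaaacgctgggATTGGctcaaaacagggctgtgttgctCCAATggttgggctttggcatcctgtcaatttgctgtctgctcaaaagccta
CCAAT was found in 33.8% of all windows of this length. Among the 7 matched genes of fatty acid synthesis that fell, 3 held it (Acacb, Fasn and Thrsp), and among all matched genes that rose and fell the shares were 41% and 43.5%. Among all matched tested genes the share was 40.5%. The shares of genes count a gene if any of its windows held CCAAT, unlike the share of windows.

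Cholesterol synthesis had no member called in the main edgeR fit among 28 tested genes, with a median of -0.21. DESeq2 called 1 higher and 1 lower, and edgeR without a filter on low counts called 2 higher and 2 lower. With 1 library left out, the most calls were 3, all lower, without NMN replicate 2. Of 33 tested genes of lipoproteins and lipases, 3 fell (0% higher and 9.09% lower, with no rises and 2, 2, 3, 4, 4 and 2 falls when each library was left out), namely Lipc, the apolipoprotein gene Apof (-0.65 on the log2 scale) and the carboxylesterase gene Ces3a (-0.85). 

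Some genes that break down sugar fell as well. In glycolysis and fructose use, 5 of 27 tested genes fell and none rose (0% higher and 18.5% lower, with 0, 0, 0, 1, 0 and 0 rises and 0, 0, 1, 5, 4 and 1 falls when each library was left out), with a median of -0.33. Khk, ketohexokinase, which traps fructose in the liver, was at 609, 553 and 515 CPM with water and 158, 294 and 297 CPM with NMN. Tkfc, which phosphorylates the glyceraldehyde released from fructose, fell by 1.11 and overlaps Ddb1 and Cyb561a3. Pklr, the pyruvate kinase of liver, was at 167, 210.4 and 289 CPM with water and 8.92, 31.7 and 32.3 CPM with NMN, and NMN replicate 1 was the lowest of all. It overlaps Hcn3. Gapdh, often used as a reference gene, was at 866, 866 and 749 CPM with water and 436, 639 and 569 CPM with NMN, a log2 fold change of -0.59 (SE 0.16, adjusted p = 0.0463).

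In gluconeogenesis and glycogen metabolism 4 of 21 tested genes fell and 1 rose (4.76% higher and 19.05% lower, with 1, 0, 2, 2, 3 and 0 rises and 3, 2, 3, 3, 4 and 3 falls when each library was left out). Fbp1, fructose bisphosphatase, was at 938, 899.6 and 1014 CPM with water and 545, 580.2 and 545 CPM with NMN. Pygl, liver glycogen phosphorylase, fell by 0.79, Ppp1r3c, which targets protein phosphatase to glycogen, by 1.81, and Gyg, glycogenin, by 1.17. The gene that rose was Creb1, a factor that responds to cyclic AMP (1.19 on the log2 scale). Pck1, which makes phosphoenolpyruvate, had 243, 467 and 822 CPM with water and 890.4, 1179 and 1069.8 CPM with NMN, and G6pc, glucose 6-phosphatase, 313, 208 and 688 CPM with water and 95.1, 154 and 201 CPM with NMN. Neither passed (adjusted p = 0.193 and 0.164), although the groups did not overlap. Among 23 genes of insulin signalling and FoxO targets 3 rose and none fell (13.04% higher and 0% lower, with 2, 1, 2, 4, 5 and 2 rises and no falls when each library was left out). Beside Igfbp2 these were Klf15, a factor of amino acid use in fasting (0.67), and Enho, which encodes adropin and overlaps Dnaic1 (1.13). Igfbp1 was at 108, 33.8 and 44.4 CPM with water and 129, 68.3 and 162 CPM with NMN and did not pass (adjusted p = 0.341).

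Targets of PPAR-alpha, the receptor that switches on fat oxidation, had a median of 0.52, and 21 of the 29 tested were above 0. Of these 3 rose and 2 fell (10.3% higher and 6.90% lower, with 3, 2, 2, 7, 2 and 2 rises and 0, 0, 0, 2, 3 and 1 falls when each library was left out). Cyp4a14, an omega-hydroxylase of fatty acids, was at 345, 213 and 226 CPM with water and 834, 3033 and 3372 CPM with NMN. Cyp4a31, of the same family, was at 9.07, 4.32 and 6.28 CPM with water and 55.4, 145 and 121 CPM with NMN. The call of Cyp4a14 was lost with the replicate block, in the fit of all 14 liver libraries and without the filter on low counts. It was also lost in some fits that left out a library (adjusted p up to 0.122 in edgeR). In both genes NMN replicate 1 was the lowest NMN library. Both belong to a family of similar genes, and reads without a unique alignment were counted for none of them. Plin4, described above, was the remaining gene that rose. Those that fell were Cyp4a12a, a male-biased member of the Cyp4a family (-1.11), and Gpd1, glycerol 3-phosphate dehydrogenase (-0.72). Angptl4, an inhibitor of lipoprotein lipase, was at 16.3, 25.9 and 72.8 CPM with water and 93.8, 286 and 299 CPM with NMN and did not pass (adjusted p = 0.123), and Fgf21, a hepatokine of fasting, was at or below 4.83 CPM in all libraries. In mitochondrial oxidation 1 of 27 tested genes rose (Slc22a5, the carnitine transporter, 1.65) and 1 fell (3.70% higher and 3.70% lower, with 0, 0, 0, 2, 0 and 0 rises and 0, 0, 0, 0, 2 and 0 falls when each library was left out). In peroxisomal oxidation 2 of 21 rose and 2 fell (9.52% higher and 9.52% lower, with 1, 1, 1, 4, 1 and 1 rises and 0, 0, 0, 1, 2 and 0 falls when each library was left out). Ehhadh, the bifunctional enzyme, was at 203, 196 and 261 CPM with water and 300.4, 618 and 649.7 CPM with NMN, and Crat, carnitine acetyltransferase, rose by 1.57. Acsl5, an acyl-CoA synthetase, fell by 0.65.

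Genes listed as higher in male than in female liver under pulsed growth hormone fell most in number. Of 44 tested, 13 fell and none rose in the edgeR test (29.5% against 4.03%), with a median of -0.54. DESeq2 called 17 lower and 1 higher. With each library left out, 9, 5, 7, 16, 12 and 8 were called lower and 0, 1, 0, 1, 0 and 0 higher. Hsd3b5, a steroid dehydrogenase, was at 499.7, 428 and 466 CPM with water and 102, 147 and 57.6 CPM with NMN. Ces2e, a carboxylesterase, was at 182, 190.3 and 183 CPM with water and 19.2, 45.6 and 46.7 CPM with NMN, and NMN replicate 1 was the lowest. Igfals, which carries insulin-like growth factors in blood, was at 140.4, 131 and 125 CPM with water and 41.0, 57.9 and 38.1 CPM with NMN. Mup3, a major urinary protein with near-identical copies, was at 9395, 12246 and 10513 CPM with water and 4238, 6947 and 4142 CPM with NMN. Reads without a unique alignment were counted for none of the copies. Serpina3k, a protease inhibitor that overlaps Serpina3m, was at 16410.4, 14005 and 13219 CPM with water and 8073, 9776 and 5786 CPM with NMN. Slco1a1, an uptake transporter, fell by 1.03, and Ugt2b38, a glucuronosyltransferase with close copies, fell by 2.62. Ghr, the growth hormone receptor itself, was at 548, 537 and 675 CPM with water and 408, 357 and 420.4 CPM with NMN, a log2 fold change of -0.57 (SE 0.14, adjusted p = 0.0374). The remaining genes that fell were Cyp2d9, Cyp4a12a, Nudt7, Susd4 and Nat8, by between 0.84 (Cyp2d9) and 1.34 (Nudt7) on the log2 scale.

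Of 28 tested female-biased genes 1 rose and 4 fell (3.57% higher and 14.3% lower, with 0, 0, 0, 2, 1 and 0 rises and 4, 4, 4, 6, 4 and 5 falls when each library was left out), and the median was 0.12. The gene that rose was Cyp4a14, which did not pass with the replicate number as a block, with all 14 liver libraries in 1 fit or without the filter on low counts. Prlr, the prolactin receptor, which overlaps Gm21973, was at 114, 116 and 135 CPM with water and 46.5, 42.8 and 61.8 CPM with NMN, and Hamp2, a copy of the hepcidin gene, which overlaps Gm44662, was at 175, 227 and 172 CPM with water and 67.5, 83.7 and 96.9 CPM with NMN. The others were Cyp2c69 and Cyp2c40, which passed the filter on low counts through the water libraries. With at least 10 counts in every library, 17 female-biased genes were tested, of which 2 fell and 1 rose. Of the 40 female-biased genes in the files, 4 had no read in any library. A promoter window of Igfals is shown because it holds TTCNNNGAA, the site of STAT5, the factor that carries the growth hormone signal. It is the 250 bases before the second of 3 annotated starts, RefSeq, GRCm38.p6, plus strand, chr17:24877981-24878230, with the site in capitals at 58 bases before the start.
Igfals: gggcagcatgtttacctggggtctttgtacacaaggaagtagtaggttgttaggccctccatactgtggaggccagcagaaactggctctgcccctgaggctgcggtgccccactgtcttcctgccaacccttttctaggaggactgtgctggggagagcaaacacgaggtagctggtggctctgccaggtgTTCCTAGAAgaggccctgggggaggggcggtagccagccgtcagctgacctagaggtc
TTCNNNGAA was found in 7.02% of all windows. Counted by gene, with a match in any of its windows, the share was 7.32% of matched tested genes. It was 9.67% of matched genes that fell and 5.67% of those that rose. Igfals was the 1 gene with it among 11 matched male-biased genes that fell.

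Enzymes of drug metabolism changed in both directions. Of 18 tested epoxygenases of the Cyp2c and related families, 5 fell and 1 rose (5.56% higher and 27.8% lower, with 0, 0, 0, 1, 1 and 1 rises and 4, 4, 4, 4, 5 and 5 falls when each library was left out). Cyp2c69 and Cyp2c40 passed the filter on low counts through the water libraries, since each had an NMN library with no read. With at least 10 counts in every library, 15 were tested, of which 3 fell and 1 rose. Cyp2c29, the most abundant, was at 2473, 2651 and 2792 CPM with water and 842, 1000.1 and 1572 CPM with NMN. Cyp2c68 was at 309, 294 and 297 CPM with water and 135, 158 and 154 CPM with NMN, Cyp2c55 fell by 1.30, and Cyp2c40 was at 12.4, 13.8 and 17.2 CPM with water and 0.887, 0.191 and 0 CPM with NMN. The Cyp2c genes have near-identical copies, and reads without a unique alignment were counted for none of them. Ephx1, the microsomal epoxide hydrolase, rose, at 288, 309 and 325 CPM with water and 458, 823 and 976 CPM with NMN, and overlaps Gm36961. Of 25 other P450 genes and their partners, 6 fell and 3 rose (12% higher and 24% lower, with 1, 2, 1, 1, 2 and 1 rises and 3, 1, 4, 6, 5 and 4 falls when each library was left out). Cyp3a11, the main drug-metabolising P450 of its family, was at 1704, 1692 and 1863 CPM with water and 932, 709 and 923 CPM with NMN, while its relative Cyp3a25 was at 396, 446 and 434 CPM with water and 927, 511 and 917 CPM with NMN. Por, the reductase that gives electrons to all microsomal P450 enzymes, was at 128, 278 and 174 CPM with water and 335, 431 and 538 CPM with NMN, and water replicate 1 was lowest. The others that fell were Cyp2d40 (-1.82), Cyp2d22 (-0.85), Cyp2d9 (-0.84), Cyp2a12 (-0.55) and Cyp2f2 (-0.51).

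Of 22 tested glutathione transferase genes 3 rose and 5 fell (13.6% higher and 22.7% lower, with 1, 1, 1, 4, 3 and 1 rises and 3, 3, 4, 5, 5 and 3 falls when each library was left out). Gsta2 rose, and its neighbour Gsta1, barely detected with water at no more than 0.411 CPM, was between 1.20 and 1.97 CPM with NMN. The Gsta genes are similar in sequence, and reads without a unique alignment were counted for none of them. Gstm1 was at 2008, 1866 and 1843 CPM with water and 2389.9, 4017 and 4359 CPM with NMN. Gstm2 was at 93.5, 83.7 and 105 CPM with water and 30.0, 35.4 and 33.1 CPM with NMN, Gstm6 at 172, 183 and 187 CPM with water and 81.2, 78.8 and 76.0 CPM with NMN, and Gstm7 fell by 0.63. Gstp3, of the pi class, was at 12.9, 14.9 and 11.02 CPM with water and 2.12, 3.21 and 2.10 CPM with NMN, and Mgst1, a membrane enzyme of the same function, at 4680.0, 4116 and 4112 CPM with water and 2514, 3020.2 and 2959 CPM with NMN. Of 26 tested glucuronosyl- and sulfotransferase genes 2 rose, Ugdh, which makes the glucuronic acid donor, at 127, 89.8 and 147 CPM with water and 290.3, 302 and 441 CPM with NMN, and Sult2a8, a bile acid sulfotransferase, at 780.2, 817 and 939 CPM with water and 1546, 1396 and 1653 CPM with NMN. Ugt2b38, Ugt3a1 and Sult1c2 fell (7.69% higher and 11.5% lower, with 2, 2, 2, 3, 4 and 2 rises and 3, 0, 0, 4, 3 and 1 falls when each library was left out). Among 26 targets of NRF2, the oxidative stress factor, Ephx1 rose in the edgeR test and none fell (3.85% higher and 0% lower, with 0, 1, 0, 1, 1 and 1 rises and 0, 0, 0, 0, 1 and 0 falls when each library was left out). DESeq2 called 3 higher and 2 lower. In alcohol and aldehyde enzymes Adh7 rose by 1.31 and Rdh9, Rdh16 and Aldh1a7 fell by 2.34, 0.92 and 0.75, of 27 tested (3.70% higher and 11.1% lower, with 1, 0, 1, 2, 2 and 0 rises and 2, 0, 0, 3, 5 and 2 falls when each library was left out).

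Genes of bile acid synthesis and export rose in part. Of 15 tested genes of bile acid synthesis 2 rose and none fell in the edgeR test (13.3% higher and 0% lower, with 1, 1, 1, 2, 2 and 1 rises and 0, 0, 0, 1, 0 and 0 falls when each library was left out), Cyp39a1 and the sterol 27-hydroxylase Cyp27a1, which was at 423, 521 and 486 CPM with water and 663, 820.1 and 844 CPM with NMN. DESeq2 called 2 higher and 1 lower. Cyp7a1, the rate-limiting enzyme of the classical route, was at 21.9, 72.6 and 23.6 CPM with water and 21.5, 16.3 and 18.4 CPM with NMN, where water replicate 2 was far above the rest, and did not pass (adjusted p = 0.229). Of 16 transport and sensing genes 3 rose and 2 fell (18.8% higher and 12.5% lower, with 0, 1, 2, 2, 5 and 0 rises and 2, 0, 0, 2, 2 and 0 falls when each library was left out). The genes that rose encode export pumps. Abcc3, which sends bile acids back to blood, was at 119, 162 and 191 CPM with water and 242, 338 and 459 CPM with NMN, Abcc2, of the canaliculus, at 246, 299.8 and 346 CPM with water and 567, 379 and 628 CPM with NMN, and Abcb4, the phospholipid exporter, at 133, 154 and 166 CPM with water and 224, 221 and 246 CPM with NMN. The uptake transporters Slc10a1 and Slco1a1 fell, Slc10a1 at 757, 1156 and 1195 CPM with water and 409, 607 and 534 CPM with NMN.

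Some genes of amino acid and methyl group metabolism fell. Of 39 genes of amino acid breakdown 4 fell and 1 rose (2.56% higher and 10.3% lower, with 0, 1, 0, 0, 2 and 0 rises and 4, 3, 4, 8, 4 and 3 falls when each library was left out), with a median of -0.22. Oat, ornithine aminotransferase, was at 624, 611 and 802 CPM with water and 283, 299 and 295 CPM with NMN, and Glud1, glutamate dehydrogenase, at 1236, 1069.8 and 1116 CPM with water and 597, 593 and 724 CPM with NMN. Aldh4a1, of proline breakdown, fell by 0.74, and Shmt1, of serine and glycine, fell by 0.82. Csad, of taurine synthesis, which overlaps Zfp740, rose by 0.87. Of 9 tested urea cycle genes Glul, glutamine synthetase, fell, at 909, 839 and 1009 CPM with water and 241, 397 and 467 CPM with NMN, with NMN replicate 1 lowest (0% higher and 11.1% lower, with no rises and 1, 1, 1, 1, 1 and 1 falls when each library was left out). Of 23 genes that handle methyl groups 4 fell and none rose (0% higher and 17.4% lower, with no rises and 2, 1, 3, 2, 5 and 1 falls when each library was left out). Gamt, which spends methyl groups on creatine, was at 219, 285 and 232 CPM with water and 63.7, 118 and 84.7 CPM with NMN, and Inmt, an amine methyltransferase, at 748, 1142 and 921 CPM with water and 341, 559 and 466 CPM with NMN. Pemt, which methylates phosphatidylethanolamine, fell by 0.57, and Bhmt, which remethylates homocysteine, fell by 0.55. The transcripts of the aminotransferases assayed in blood did not pass. Gpt was at 320.2, 418 and 276 CPM with water and 287, 422 and 366 CPM with NMN, Got1 at 191, 261 and 208 CPM with water and 210.0, 115 and 239.7 CPM with NMN and Got2 at 327, 354 and 302 CPM with water and 279.9, 317 and 280.2 CPM with NMN, and the groups overlapped for each.

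Most tested genes of complement and coagulation had log2 fold changes below 0, while acute phase genes went both ways. Of 42 tested genes of complement and coagulation 7 fell and 1 rose (2.38% higher and 16.7% lower, with 0, 0, 0, 0, 3 and 0 rises and 2, 1, 3, 11, 7 and 1 falls when each library was left out), 34 were below 0, and the median was -0.25. Ahsg, fetuin A, was at 11760.5, 12736 and 10772 CPM with water and 7554, 8387 and 8115 CPM with NMN, and Vtn, vitronectin, at 3706, 3744 and 3044 CPM with water and 2242, 2329 and 1813 CPM with NMN. Of the mannose-binding lectins Mbl1 fell by 0.91 and Mbl2 rose by 0.50. Masp1 and Masp2, their proteases, fell by 0.67 and 0.66. C8g, of the membrane attack complex, and F11, coagulation factor XI, fell by 0.58 and 0.69. Among 32 acute phase genes 4 rose and 3 fell (12.5% higher and 9.38% lower, with 4, 2, 2, 7, 2 and 2 rises and 1, 1, 3, 7, 3 and 1 falls when each library was left out). Of these 32 genes 17 were above 0 and 15 below, with a median of 0.07. Orm2, an orosomucoid with close copies, was at 147, 93.3 and 105 CPM with water and 174, 316 and 351 CPM with NMN. The receptors Il1r1 and Il6ra rose by 1.12 and 1.33, and Il1rn, the antagonist of the first, was at 1.49, 1.49 and 1.18 CPM with water and 5.67, 6.41 and 11.5 CPM with NMN. Apcs, serum amyloid P, Serpina3m and Itih4 fell by 0.97, 1.03 and 0.56. With all 14 liver libraries in 1 fit 3 acute phase genes rose and 1 fell, and with the replicate block 3 rose and 8 fell. Orm2, Apcs and Itih4 did not pass in every alternative that left out no library. Of the 50 genes with the most reads 12 fell and 1, Gstm1, rose, and 37 were below 0. Ttr, transthyretin, was among them, at 7699, 7845 and 6956 CPM with water and 3457, 4186 and 3868 CPM with NMN.

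Of 20 tested p53 targets 3 rose and none fell (15% higher and 0% lower, with 3, 2, 3, 3, 3 and 2 rises and no falls when each library was left out), with a median of 0.48. With all 14 liver libraries in 1 fit 1 rose, and Trp53inp1 and Plk3 did not pass. Trp53inp1 was at 26.8, 17.2 and 28.4 CPM with water and 80.8, 60.7 and 103 CPM with NMN. Mdm2, the ligase that degrades p53, was at 13.8, 14.6 and 17.5 CPM with water and 31.4, 23.1 and 36.6 CPM with NMN, and Plk3, a stress kinase that overlaps Tctex1d4, rose by 1.21. Cdkn1a, the cell cycle inhibitor p21, was at 9.84, 1.59 and 0.889 CPM with water and 6.11, 11.8 and 16.8 CPM with NMN and did not pass (adjusted p = 0.397). In the ER stress list 1 of 24 tested genes fell (0% higher and 4.17% lower, with 0, 0, 0, 1, 0 and 0 rises and 0, 0, 0, 0, 1 and 0 falls when each library was left out). It was Xbp1 (fall of 0.67), and it passed in 1 of the 6 fits that left out a library. In the heat shock list 1 of 17 rose (5.88% higher and 0% lower, with 1, 0, 0, 2, 0 and 0 rises and no falls when each library was left out). It was Hspb8 (0.58), and it passed in 0 of the 6 fits that left out a library. None of 19 tested proliferation genes, 24 glucocorticoid targets, 49 nuclear genes of oxidative phosphorylation or 7 mitochondrially encoded genes passed in the edgeR test, with medians of 0.09, 0.11, -0.11 and 0.03. In DESeq2's test, 0, 8, 1 and 0 of them passed. Without a filter on low counts, edgeR called 4 glucocorticoid targets higher and 2 lower. It also called 1 proliferation gene and 1 nuclear gene of oxidative phosphorylation lower. Across all genes 3072 had an unadjusted p under 0.05.

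Clock genes varied widely within both groups. Dbp, a clock output gene with one of the largest daily swings in liver, was at 0.412, 135 and 64.9 CPM with water and 9.42, 59.6 and 25.1 CPM with NMN. Arntl, which encodes BMAL1 and peaks at the opposite time of day, was at 24.8, 3.29 and 7.35 CPM with water and 33.5, 5.69 and 14.7 CPM with NMN. Replicate 1 was the lowest for Dbp and the highest for Arntl in both groups. The next genes were named after their values were seen. Npas2, a partner of BMAL1, was at 15.4, 0.874 and 0.889 CPM with water and 3.11, 0.383 and 0.999 CPM with NMN, and Cry1 at 21.5, 8.33 and 5.57 CPM with water and 31.9, 6.89 and 17.8 CPM with NMN, with replicate 1 again highest in each group. Usp2, another output gene, was at 0.773, 15.8 and 4.50 CPM with water and 2.81, 24.6 and 11.6 CPM with NMN. Replicate 1 of each group was lowest here too. Nr1d1 differed, at 32.5, 149 and 150 CPM with water and 91.4, 141 and 79.0 CPM with NMN, where NMN replicate 3 was the lowest of its group. None of these passed (adjusted p from 0.472 for Npas2 to 0.947 for Nr1d1), and the groups overlapped for each. With the replicate number as a block, Arntl passed (log2 fold change 0.73, adjusted p = 0.0496 in edgeR). Of 16 core clock genes 1 rose and 1 fell (6.25% higher and 6.25% lower, with 0, 0, 0, 1, 2 and 0 rises and 0, 0, 1, 1, 1 and 0 falls when each library was left out), and 4 rose and 1 fell with the block. Of 26 tested clock output genes 1 rose and 1 fell (3.85% higher and 3.85% lower, with 1, 1, 0, 2, 1 and 0 rises and 0, 0, 0, 2, 3 and 0 falls when each library was left out), and 4 rose and 4 fell with the block. The part of this difference between replicates in other results was not tested beyond the fits with the replicate block.

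Genes of both zones of the liver lobule had medians below 0. Of 27 pericentral genes 4 fell and 2 rose (7.41% higher and 14.8% lower, with 1, 1, 1, 2, 2 and 1 rises and 4, 3, 4, 4, 5 and 3 falls when each library was left out), with a median of -0.40. Of 27 periportal genes 3 fell and 2 rose (7.41% higher and 11.1% lower, with 0, 0, 1, 2, 3 and 0 rises and 1, 1, 2, 8, 2 and 1 falls when each library was left out), with a median of -0.23. Glul, Oat, Lect2 and Slc13a3, a dicarboxylate transporter, fell on the pericentral side, and Nr1i3 and Cyp27a1 rose. On the periportal side Fbp1, Cyp2f2 and Serpina1c fell, and Hsd17b13, a lipid droplet enzyme, and Pigr, the immunoglobulin receptor, rose by 0.65 and 0.58. Of the 12 hepatocyte markers Ttr was called, and 10 of them were below 0.

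None of 15 Kupffer cell markers, 15 endothelial, 15 stellate or 8 tested bile duct markers passed in the edgeR test. DESeq2 called 2 endothelial markers higher and none of the other 3 lists. Without a filter on low counts, edgeR called 1 Kupffer cell marker lower and 1 endothelial marker higher. The summed level of the Kupffer cell markers, of which Clec4f was the most abundant, was 324, 467 and 229.8 plain CPM in the water libraries and 297, 334 and 275 plain CPM in the NMN libraries. Of 5 tested erythroid markers, Alas2, the first enzyme of haem synthesis in red cell precursors, was the most abundant, and it fell, at 86.7, 108 and 104 CPM with water and 35.0, 33.8 and 21.9 CPM with NMN. It overlaps Apex2, and it passed in 6 of the 6 fits that left out a library. The globin gene Hbb-bs was not called, at 13.3, 12.6 and 5.15 CPM with water and 3.85, 5.31 and 32.2 CPM with NMN, where NMN replicate 3 was highest. Igkc, an antibody light chain, was at 9.53, 17.5 and 8.65 CPM with water and 5.62, 3.59 and 4.99 CPM with NMN, the 1 of 5 tested lymphocyte and neutrophil markers that passed (0% higher and 20% lower, with no rises and 0, 0, 1, 1, 1 and 0 falls when each library was left out). It did not pass with the replicate number as a block. Of 12 pancreas and gut markers 6 had no read in any library, and of the 2 tested Lgals4 rose and Cela1, an elastase, fell, at 22.3, 24.0 and 19.5 CPM with water and 4.09, 6.36 and 4.10 CPM with NMN. The lists are compared in the plot of called shares.

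**Figure D4:**
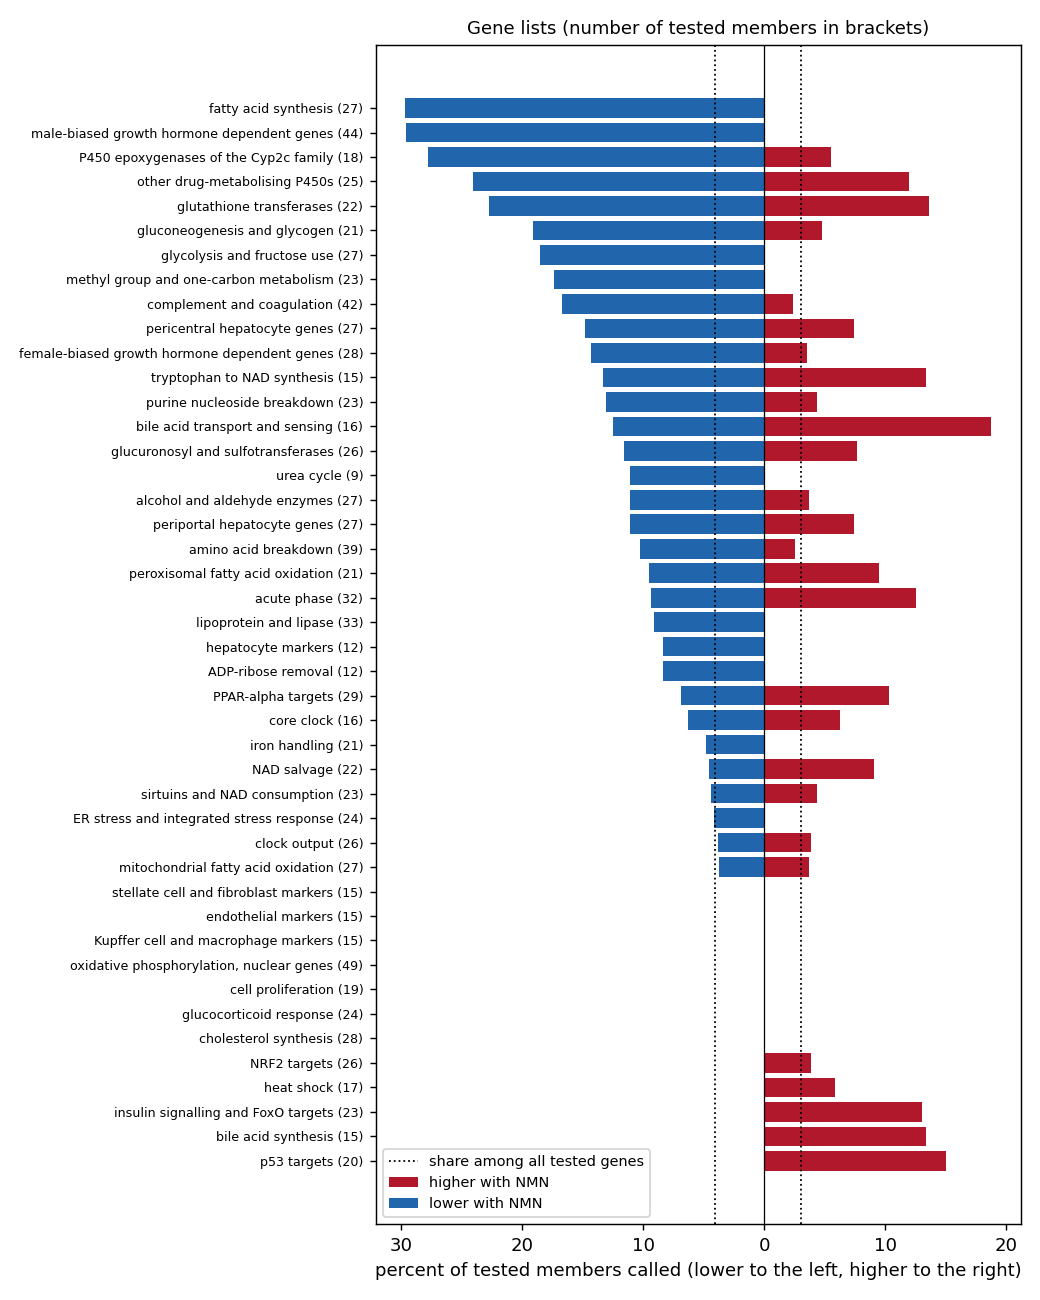
Bars give the percent of tested members of each list that were called higher (red, to the right) or lower (blue, to the left) with NMN, for the lists with at least 9 tested members, and dotted lines give the shares among all tested genes. Fatty acid synthesis and male-biased genes have the longest bars, 29.6% and 29.5% lower with none higher in the edgeR test.

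Genes called in the opposite directions also differed in structure. The median exon length was 5854 bases for genes that rose, 2937 for those that fell and 4336 for all tested genes, and the median GC content was 47.3%, 52.7% and 49.9%. When each library's dependence on length and GC content was taken out by offsets, 425 genes rose and 514 fell, and 732 of these 939 were among the 883. Fatty acid synthesis then had 8 genes that fell, and the male-biased list 12 that fell and 1 that rose. Some medians near 0 changed sign, from -0.11 to 0.04 for the nuclear genes of oxidative phosphorylation, from -0.14 to 0.01 for lipoproteins and lipases and from 0.12 to -0.03 for female-biased genes.

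Fewer genes passed on the schedule with 1 gavage a day. At an adjusted p under 0.05, 2 of 12449 genes passed there (0.0161%), and 854 had an unadjusted p under 0.05 (6.86%). Of the 883 genes, 871 were also tested at 1340 mg/kg/d, and 779 of them (89.4%) changed in the same direction, against 68.4% of all 11982 genes tested in both. The medians there were 0.28 for the genes that rose and -0.25 for those that fell. The schedules have their own water mice and differ in dose and in the number of gavages together, so these cannot be told apart. Their libraries differed too. Reads assigned to genes were 12688324 to 16455228 at 1340 mg/kg/d and 17573184 to 20635269 at 2680 mg/kg/d. The mean mitochondrial share was 4.57% (water) and 5.03% (NMN) at 1340 mg/kg/d, and 6.67% and 7.81% at 2680 mg/kg/d. The part of these differences was not tested. A test of the difference in the NMN effect, over the 14 liver libraries, called 10 of 13412 genes (0.0746%). Of them 2 were higher (0.0149%) and 8 lower (0.0596%) at 2680 mg/kg/d. The count was 100 with DESeq2, 71 without a filter on low counts and between 7 and 25 with 1 library left out. 

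Among the 10 genes called for the difference between schedules, Macrod1 had the largest one on the log2 scale. Its level was 52.95 ± 6.25 CPM with water and 44.6 ± 12.8 CPM with NMN on the schedule with 1 gavage (SD, n = 4 each), and 70.1 ± 10.8 CPM and 6.57 ± 0.928 CPM with 2 gavages (SD, n = 3 each, scaled here over all 14 libraries). Lipc went from 169.4 ± 22.5 to 141.0 ± 18.4 CPM with 1 gavage and from 251.9 ± 26.4 to 82.6 ± 8.27 CPM with 2. Prodh2, the hydroxyproline dehydrogenase of liver, went from 194.3 ± 2.74 to 176.7 ± 15.5 CPM and from 184.5 ± 24.5 to 51.4 ± 14.5 CPM. For Acmsd the point estimates had opposite signs, -0.61 with 1 gavage (adjusted p = 0.6596) and 1.67 with 2. Its levels were 24.1 ± 7.34 and 15.8 ± 4.05 CPM with 1 gavage and 30.5 ± 5.06 and 97.3 ± 34.9 CPM with 2. 1700028E10Rik was at 9.02 ± 1.86 and 21.3 ± 3.91 CPM with 1 gavage (adjusted p = 0.0659, not called) and at 7.52 ± 1.34 and 70.05 ± 6.32 CPM with 2.

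**Figure D5:**
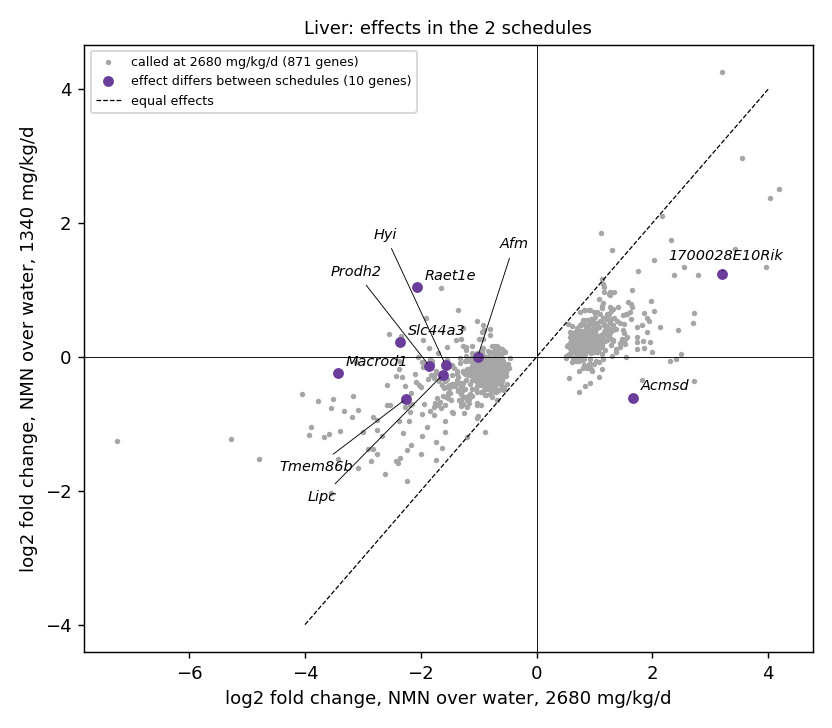
Each grey point is 1 of 871 genes called at 2680 mg/kg/d, with its log2 fold change there on the horizontal axis and at 1340 mg/kg/d on the vertical axis. Purple points are the 10 genes whose effect differed between the schedules, and the dashed line marks equal effects. Macrod1 lies at -3.42 and -0.25.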

How the data were processed

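Polyadenylated RNA of whole liver was sequenced. Per the article's methods, the authors used STAR for alignment and HTSeq-count for gene counts, in its intersection-strict mode and without regard to strand, so that reads lying wholly in exons of 2 genes were counted for neither. The genome is named there as a build that could not be matched to a known assembly. The deposited values are raw counts per gene, with no normalization, for 54446 genes. Symbols came from a GENCODE annotation of GRCm38, where 37 IDs found no match. Summary lines for unassigned reads, among them reads without a unique alignment, were left out of library sizes.

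Counts of the 6 libraries were filtered with filterByExpr, scaled by TMM and tested with edgeR 4.0.16 in R 4.3.3 (robust quasi-likelihood, two-sided, Benjamini-Hochberg adjustment over 12477 genes). The schedules were compared by the interaction term over 14 libraries. Standard errors were taken from the fold change and its F statistic. Alternatives were DESeq2 1.42.0, other normalizations and filters, a replicate block, all 14 liver libraries in 1 fit, leaving out each library, and length and GC offsets, the last added after seeing the data.

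The named genes are the 12 with the smallest p in each direction (mean of at least 1 CPM, no overlap), up to 4 with the smallest p in each of 50 gene lists, called members of those lists, a fixed set of genes, and the 4 strongest interaction genes per direction. Members and lists were chosen with earlier results of these data known. No label says whether libraries of a group came from separate cages or days, so p-values measure the spread between these mice. On simulated data with 200 changed genes for this comparison (12477 genes), edgeR recovered 51% of 2-fold and 85% of 4-fold changes, and 7.48% of its calls were false. Promoters are RefSeq windows of GRCm38.p6. Some genes of the lists are counted but not reported here by name.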

Additional observations from a re-analysis of the deposited data

Results flagged for a closer look

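The effect of NMN differed between the schedules for 10 genes in edgeR's interaction test over 14 libraries. The difference in log2 fold change, 2 gavages minus 1, was -3.17 for Macrod1, -1.71 for Prodh2, -1.34 for Lipc, -1.62 for Tmem86b and -1.45 for Hyi. It was 1.99 for 1700028E10Rik and 2.28 for Acmsd. Raet1e, a ligand of a natural killer cell receptor with close copies (-3.10), Slc44a3, a choline transporter-like protein (-2.57), and Afm, the vitamin E binding protein afamin (-1.01), were named because they passed this test.

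A single mouse lay far from the others of its group in 2 cases, both with 1 gavage. For Tmem86b the gap of the highest NMN mouse to the next was 0.928 of the range of the group, and for Afm a water mouse had a gap of 0.860. Chance marks about 1 in 20 such groups.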

How the results depend on the processing

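DESeq2, on all genes with its own filter, called 1451 genes (719 higher, 423 at the stricter threshold) and 100 for the difference between schedules, and edgeR without a filter called 1785 (934 higher, 851 lower, 504 at the stricter threshold) and 71. With 1 library left out, the counts ranged from 211 to 1308 in all, 70 to 695 higher, 141 to 613 lower, 34 to 259 at the stricter threshold and 7 to 25 for the difference between schedules. It was 19 without NMN replicate 2 of 2 gavages and 25 without NMN replicate 4 of 1 gavage. The other settings stayed within 1.5 times of the reported counts. A replicate block gave 1153 genes (564 higher, 589 lower). The deviations of same-numbered libraries correlated at 0.058, 0.143 and 0.151, not all over 0.1, and each library correlated best with the one of its own number, which is a hint from the data and not the design. Of 149 named genes that were called, 108 passed in every setting that left out no library. Of these, 58 passed with each library left out as well. The settings for the 108 include the fit of all 14 liver libraries, and a gene not tested in a setting was not counted as lost there. With at least 10 counts in every library, 143 of the 149 were tested, and all passed. The fit of all 14 liver libraries lost 26 of the 149. None of these changed direction. Among named genes that did not pass, some changed sign. Leaving out 1 library gave ranges of log2 fold change from -0.436 to 0.0244 for Got1, -0.0564 to 0.265 for Gpt, -1.78 to 3.22 for Kap, -0.232 to 1.76 for Arntl and -1.18 to 0.840 for Hbb-bs. Hbb-bs was at -0.243 with the replicate block, and Nmnat1 at 0.0059 with length and GC offsets. The cause was not tested. Intervals cover counting error only.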
